A study of Mus musculus with 9 samples.

Results

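Blood vessel walls were followed through 7 genes in 9 brain libraries of aged mice, namely the smooth muscle myosin gene Myh11, the endothelial genes Pecam1, Icam2 and Tek, the caveolin genes Cav1 and Cav2, and the laminin receptor gene Bcam. They were picked by name, with earlier results of these data known, and all 7 were found among the 2996 genes of the table analysed here. Of these, 6 exceeded 1 FPKM in at least 3 libraries and so belonged to the 2226 genes tested, while Icam2 did not. FPKM, the unit deposited, is the number of fragments of a gene scaled to the length of its transcript and to the reads of the library.

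The mice were 24 months old, kept under SPF (specific pathogen free) conditions, and their brains were perfused before collection. Groups L and H had water containing perfluorooctane sulfonate (PFOS), a long-lived fluorinated compound, for 7.5 months. Matched by letter to the design text, L had the low concentration of 0.5 µg per litre and H the high one of 50 µg per litre, while for C, used here as the comparison group, no dose was stated. Each group held 3 libraries labelled as brain, made from total RNA and sequenced as mRNA. Strain, sex and brain region were not stated. Nothing says that the libraries came from separate animals, so p-values measure the spread between these libraries, which may be technical.

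Brain vessels consist of an inner layer of endothelial cells, held together by adhesion molecules, and an outer layer of mural cells. Mural cells are contractile smooth muscle in arteries and arterioles and pericytes in capillaries. Caveolae are small pits of the plasma membrane built from caveolins and cavins. In bulk tissue, fewer vessel cells and less RNA per cell cannot be told apart.

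All 7 members were detected in every library, and Cav2 had the highest mean level. Over the 9 libraries it was 11.9 ± 5.20 FPKM (SD). Means were 6.01 ± 1.55 FPKM for Pecam1, 5.999 ± 1.49 for Bcam, 5.55 ± 1.51 for Cav1, 4.50 ± 1.46 for Myh11, 3.24 ± 0.313 for Tek and 0.883 ± 0.324 for Icam2. Neighbours in this order overlapped in range except Tek and Icam2. Tek exceeded Icam2 in 9 of 9 libraries and Cav2 exceeded Pecam1 in 8 of 9, but Pecam1 exceeded Bcam in 5 of 9 and Bcam exceeded Cav1 in 6 of 9. Cav1 exceeded Myh11, and Myh11 exceeded Tek, in 8 of 9 libraries each. The 6 tested members rested on 192 to 1337 reads per library, a counting error of 2.73% to 7.22%, and Icam2 on 18 to 49 reads, an error of 14.3% to 23.6%. These errors cover counting alone.

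Libraries differed in markers of brain regions. Summed over Gabra6, Ppp1r17 and Pcp2, cerebellar genes gave 502.9 FPKM for C1, 107.7 for L3, 34.9 for L1, 5.54 for H1, and 0.0284 to 0.519 for the rest. The pallial sum was 41.2 to 126.6 FPKM apart from C1, with 1.23, and L3, with 3.35. Striatal genes reached 57.05 FPKM in L1 and 52.99 in H2, against 1.26 to 24.97 elsewhere, and hypothalamic genes 34.6 FPKM in L1 against 2.01 to 7.83 elsewhere. The astrocyte glutamate transporter gene Slc1a2 stood at 92.4 to 289.7 FPKM, so brain tissue markers were present throughout. Depth was 15371513 to 20431208 reads per library. C1 and L3 stood apart most in cerebellar and pallial markers and L1 in hypothalamic ones.

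Promoter windows are shown for 3 members: Bcam, whose L libraries lay apart from the rest, and the neighbours Cav1 and Cav2, whose levels were unlike. RefSeq sequences on GRCm38.p6 were matched for 4 of the 7 members, and of 2 windows for Cav1 the upstream one is shown. They run from 250 bases before to 50 bases after the RefSeq start, 5′ to 3′ on the gene's strand. For Cav1 and Cav2 this is the start of the gene as given below. The Bcam window lies wholly inside the gene coordinates given below, so its start is a different one. Capitals mark GGAA or its reverse complement TTCC, the core bound by ETS transcription factors, a family known in endothelial cells.
Cav2 promoter, chr6:17280935-17281234, plus strand: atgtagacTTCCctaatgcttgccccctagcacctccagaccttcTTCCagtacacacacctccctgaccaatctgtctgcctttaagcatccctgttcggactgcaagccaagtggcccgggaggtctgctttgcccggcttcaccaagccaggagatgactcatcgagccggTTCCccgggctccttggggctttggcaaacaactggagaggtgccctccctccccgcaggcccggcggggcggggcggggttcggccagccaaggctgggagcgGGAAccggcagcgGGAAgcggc
Cav1 promoter, chr6:17306085-17306384, plus strand: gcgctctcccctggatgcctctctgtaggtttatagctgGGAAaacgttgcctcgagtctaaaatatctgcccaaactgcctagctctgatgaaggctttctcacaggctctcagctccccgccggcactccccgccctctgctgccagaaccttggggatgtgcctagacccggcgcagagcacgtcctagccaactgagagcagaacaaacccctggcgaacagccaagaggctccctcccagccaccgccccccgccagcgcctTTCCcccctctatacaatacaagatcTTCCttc
Bcam promoter, chr7:19770483-19770782, minus strand: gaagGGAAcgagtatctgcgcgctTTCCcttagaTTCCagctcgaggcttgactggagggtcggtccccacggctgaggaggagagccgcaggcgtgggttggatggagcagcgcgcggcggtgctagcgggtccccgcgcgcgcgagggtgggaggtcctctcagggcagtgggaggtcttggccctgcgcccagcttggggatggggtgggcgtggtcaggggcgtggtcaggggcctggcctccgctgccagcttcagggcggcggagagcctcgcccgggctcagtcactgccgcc

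Searched on both strands, GGAA occurred 5 times in the Cav2 window and 3 times in each of the Cav1 and Bcam windows. It occurred in 96.0% of all 32851 windows of this length, at least 3 times in 66.3% and at least 5 times in 28.6%. The GC box GGGCGG, searched likewise, occurred 2 times for Cav2, 2 times for Cav1 and 1 time for Bcam, and at least 1 time in 35.7% and at least 2 times in 19.5% of all windows. The other Cav1 window held 0. No GC box match overlapped a GGAA match in these windows. Bcam had 71.0% G and C with 27 CpG dinucleotides, Cav2 64.3% with 16 and Cav1 59.3% with 13, against medians of 52.7% and 7 over all windows. A match describes the letters and is not a binding site.

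**Figure D1:**
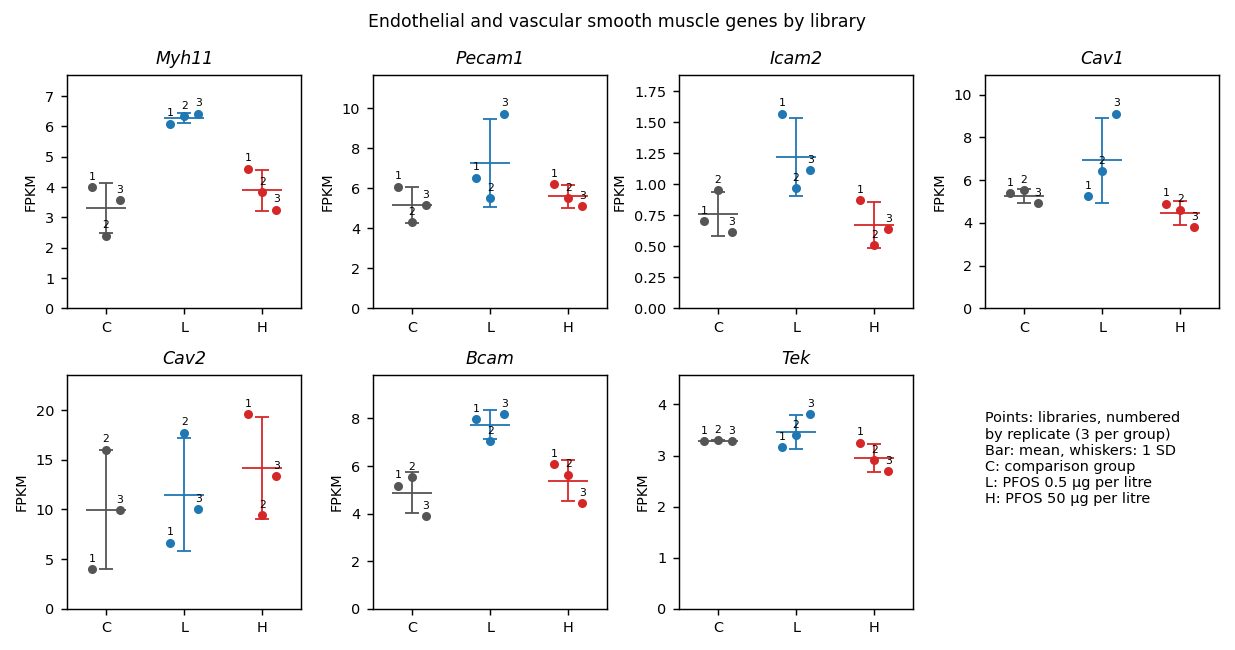
Level in FPKM (vertical axis) of each of the 7 genes in every library, by group (horizontal axis), with the mean and 1 SD of 3 libraries. Myh11 and Bcam show all 3 L points above all C and H points, and Cav2 shows wide spread in every group.

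Smooth muscle was followed through Myh11, the myosin heavy chain of contractile smooth muscle (ENSMUSG00000018830, chromosome 16, 14194535 to 14291372, GRCm38). Values are given in the order of replicates 1, 2 and 3: the C libraries had 4.002, 2.40 and 3.57 FPKM, the L libraries 6.09, 6.34 and 6.43, and the H libraries 4.61, 3.83 and 3.26. All 3 L libraries lay above all 6 others, and H overlapped C. Group means were 6.28 ± 0.174 FPKM in L (SD, n = 3), 3.33 ± 0.826 in C and 3.90 ± 0.678 in H. On the scale of log2(FPKM + 1), used for all differences and understating those of low genes, L differed from C by 0.77 ± 0.17 (SE), with a 95% interval of 0.38 to 1.16. This did not pass the threshold of 0.05 over all tested genes (limma, adjusted p = 0.962). H differed from L by -0.58 ± 0.17 (limma, adjusted p = 0.961), interval -0.97 to -0.19. H differed from C by 0.19 ± 0.17 (limma, adjusted p = 0.890), or by 0.03 without C2 and 0.30 without C1.

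Bcam encodes a receptor of the immunoglobulin superfamily for the laminin alpha 5 chain of basement membranes (ENSMUSG00000002980, chromosome 7, 19756131 to 19771016). For it, the C libraries had 5.17, 5.55 and 3.90 FPKM, the L libraries 7.97, 7.05 and 8.19, and the H libraries 6.09, 5.64 and 4.43. Again every L library exceeded the other 6. Means were 7.74 ± 0.606 FPKM in L (SD, n = 3), 4.88 ± 0.862 in C and 5.38 ± 0.860 in H. L differed from C by 0.58 ± 0.16 (SE; limma, adjusted p = 0.998), with an interval of 0.22 to 0.94. H differed from L by -0.46 ± 0.16 (limma, adjusted p = 0.961) and from C by 0.12 ± 0.16 (limma, adjusted p = 0.890). Of the Bcam exon bases, 52 lie opposite exons of the antisense gene Gm26600. Whether counting used strand was not stated, so reads of the pair cannot be told apart there.

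Among the endothelial adhesion genes, Pecam1 encodes a molecule of endothelial junctions that platelets and leukocytes also carry (ENSMUSG00000020717, chromosome 11, 106654217 to 106750628). Here the C libraries had 6.08, 4.29 and 5.16 FPKM, the L libraries 6.53, 5.52 and 9.73, and the H libraries 6.21, 5.50 and 5.09. L3 stood above all others, and the groups overlapped in each comparison. L differed from C by 0.40 ± 0.20 (SE; limma, adjusted p = 0.998), or by 0.19 without L3. H differed from L by -0.30 ± 0.20 (limma, adjusted p = 0.961), or by -0.09 without L3, and from C by 0.10 ± 0.20 (limma, adjusted p = 0.929).

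Icam2, a ligand of leukocyte integrins carried by resting endothelium (ENSMUSG00000001029, chromosome 11, 106377656 to 106388075), was the faintest member. For Icam2, the C libraries had 0.704, 0.954 and 0.615 FPKM, the L libraries 1.57, 0.972 and 1.12, and the H libraries 0.874, 0.509 and 0.638. The L libraries lay above the rest, but L2 and C2 were close, with 37 and 35 reads. Differences were 0.33 for L against C, -0.40 for H against L and -0.07 for H against C, outside the main test. With no filter on low values the adjusted p of limma was 1, 0.974 and 0.940 in that order. Icam2 and Pecam1 lie on the same chromosome with 266141 bases between them.

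Tek, which encodes the angiopoietin receptor Tie2 of endothelial cells (ENSMUSG00000006386, chromosome 4, 94739289 to 94874976), had the smallest spread. For Tek, the C libraries had 3.29, 3.31 and 3.29 FPKM, the L libraries 3.17, 3.41 and 3.82, and the H libraries 3.25, 2.91 and 2.69. All H libraries lay below all C libraries, by a narrow margin, while L overlapped both. H differed from C by -0.12 ± 0.12 (SE; limma, adjusted p = 0.890) and from L by -0.18 ± 0.12 (limma, adjusted p = 0.961), and L from C by 0.05 ± 0.12 (limma, adjusted p = 0.998). The 95% interval of L against C was -0.22 to 0.32. Its within-group SD on the log2 scale was 0.0847, against a median of 0.246 over the tested genes, of which 80 had an SD no larger.

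Cav1 encodes the caveolin needed to form caveolae in endothelial and smooth muscle cells (ENSMUSG00000007655, chromosome 6, 17306335 to 17341452). Of it, the C libraries had 5.38, 5.53 and 4.91 FPKM, the L libraries 5.24, 6.43 and 9.11, and the H libraries 4.90, 4.62 and 3.82. Every H library lay below every C and L library, H1 at 4.90 just under C3 at 4.91 FPKM, and L overlapped C. H differed from L by -0.52 ± 0.18 (SE; limma, adjusted p = 0.961), or by -0.33 without L3. H differed from C by -0.21 ± 0.18 (limma, adjusted p = 0.890), or by -0.12 without H3. L differed from C by 0.31 ± 0.18 (limma, adjusted p = 0.998), or by 0.12 without L3 and 0.47 without L1.

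Cav2, whose product joins caveolin 1 in mixed oligomers (ENSMUSG00000000058, chromosome 6, 17281185 to 17289115), lies upstream of Cav1 with 17219 bases between the genes. For Cav2, the C libraries had 4.001, 16.02 and 9.93 FPKM, the L libraries 6.66, 17.7 and 10.02, and the H libraries 19.6, 9.46 and 13.4. High and low libraries occurred in every group, with C1 lowest and H1 highest, 4.90-fold apart. A within-group SD of at least that of Cav2, 0.698, was held by 147 of the 2226 tested genes. Differences were 0.58 ± 0.49 for H against C (SE; limma, adjusted p = 0.890), 0.25 ± 0.49 for L against C (limma, adjusted p = 0.998) and 0.32 ± 0.49 for H against L (limma, adjusted p = 0.961). The interval of H against C was -0.54 to 1.70, and its value was 0.10 without C1 and 0.98 without C2. Without C1, L against C turned to -0.23, and without L2 to -0.09. H against L was 0.02 without L1 and 0.67 without L2.

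The ratio of Cav2 to Cav1 varied likewise. In the same replicate order, the C libraries had 0.744, 2.90 and 2.02, the L libraries 1.27, 2.76 and 1.10, and the H libraries 4.002, 2.04 and 3.50. Cav2 thus exceeded Cav1 in every library but C1. For the ratio of Myh11 to Pecam1, smooth muscle over endothelium, the C libraries had 0.658, 0.560 and 0.692, the L libraries 0.933, 1.15 and 0.660, and the H libraries 0.743, 0.697 and 0.641. L1 and L2 had the highest values of this ratio. L3, where Pecam1 was highest at 9.73 FPKM, lay inside the range of C. The ratio rests on a single gene of each kind, and a ratio to Tek was not taken.

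**Figure D2:**
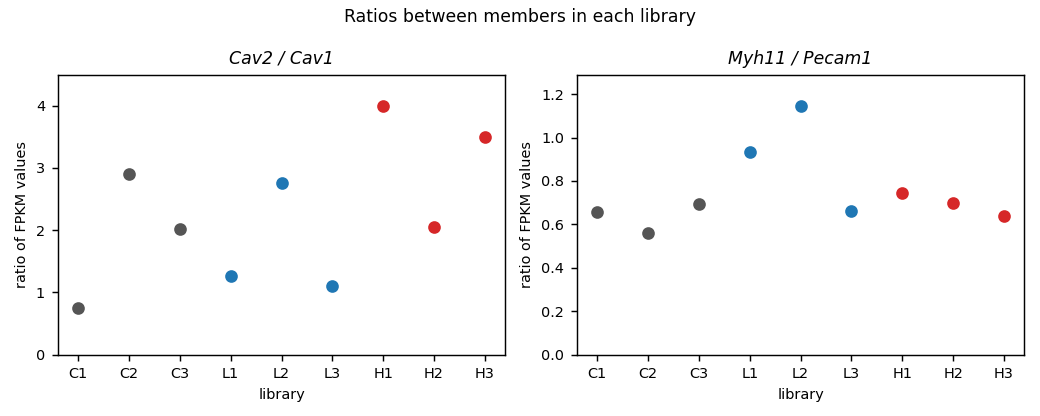
Ratio of FPKM values (vertical axis) of Cav2 to Cav1 and of Myh11 to Pecam1 in each of the 9 libraries (horizontal axis), with C grey, L blue and H red. The first is lowest in C1 and highest in H1, and the second is highest in L2 and L1.

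Set side by side, all 7 means were higher in L than in C, with a median difference of 0.33 against 0.03 over all tested genes, of which 56.3% were higher. Groups did not overlap for Myh11 and Bcam, 2 of 6 tested members, both higher in L, as for 4.99% of tested genes. No tested member was lower in L without overlap, against 1.66% of tested genes. The same 2 had an unadjusted p under 0.05 in limma, as had 87 genes or 3.91%. None of the 6, and 0.0% of tested genes, passed an adjusted p of 0.05, and limma-voom on recovered reads gave 0 calls, with 77 genes under an unadjusted 0.05. All 6 were over 1 FPKM in every library, so none entered the test through a single group. The members were chosen with earlier results of these data known, so their shares here and below are not those of unselected genes.

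Means in H were lower than in L for 6 of 7, Cav2 being the exception, with a median difference of -0.40 against -0.03 over all tested genes. Myh11, Bcam and Cav1 were lower without overlap, 3 of 6 tested members against 6.74% of tested genes, and 0 were higher without overlap, against 2.34%. These 3 had an unadjusted p under 0.05 in limma, as had 30 genes or 1.35%. Adjusted calls were 0.0% in limma (lowest adjusted p = 0.961) and 0 in limma-voom, with 32 genes under an unadjusted 0.05 there.

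Between H and C the members split, 4 of 7 means being higher in H and 3 lower, with a median of 0.10 against 0.02 over all tested genes. Cav1 and Tek were lower without overlap, 2 of 6 tested members against 4.94% of tested genes, and 0 were higher without overlap, against 5.35%. No tested member had an unadjusted p under 0.05 in limma, against 71 genes or 3.19%. Adjusted calls were 0.0% in limma (lowest adjusted p = 0.890) and 0 in limma-voom, with 67 genes under an unadjusted 0.05 there. Comparisons with L share the L libraries, so a high L library enters both with opposite sign, and each pair of comparisons shares a group.

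**Figure D3:**
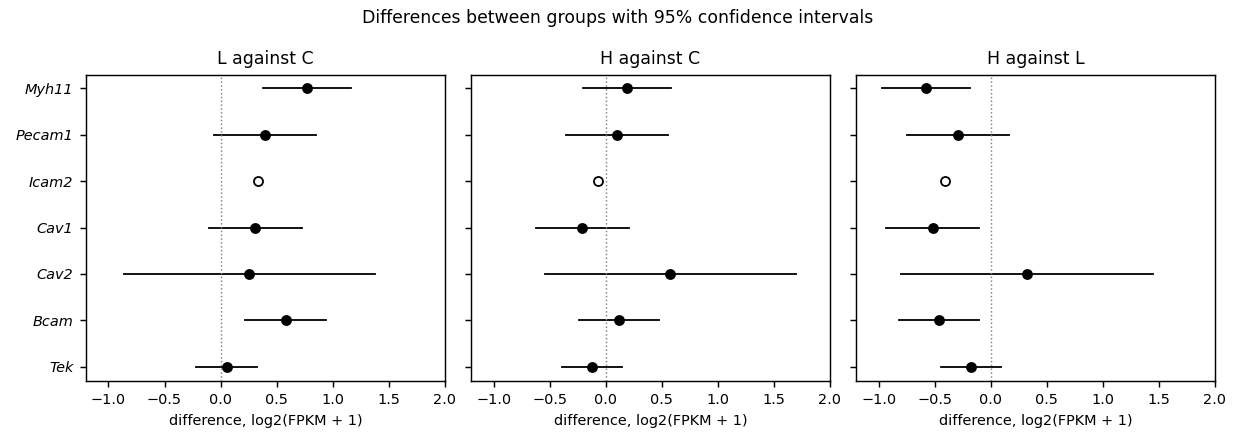
Difference in mean log2(FPKM + 1) between groups (horizontal axis) for each of the 7 genes, with the 95% confidence interval of the limma fit, and an open circle without interval for Icam2, which was not tested. The intervals of Myh11 and Bcam lie above 0 in L against C, and those of Myh11, Bcam and Cav1 below 0 in H against L.

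A test over all 3 groups at once gave an adjusted p of 0.958 for each tested member (limma, F test). For a single gene, an exact permutation test of 3 libraries against 3 has a smallest two-sided p of 0.1. That exact p of 0.1 was reached by Myh11, Bcam and Icam2 for L against C, by Myh11, Bcam, Cav1 and Icam2 for H against L, and by Cav1 and Tek for H against C. With 3 libraries a group it is reached only where the groups do not overlap. It thus repeats those counts, with the shares of tested genes given above, and is no further test.

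Centred on each gene and averaged over the 7, the log2 level summarised the libraries. In replicate order, the C libraries had -0.22, -0.06 and -0.18, the L libraries 0.10, 0.23 and 0.35, and the H libraries 0.13, -0.15 and -0.19. H1 lay above L1 in this mean, and without Cav2 the values of H1 and L1 were 0.01 and 0.22. L2, L3 and H1 each had 6 of 7 members above their own mean, and H2 had 0 of 7.

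Across the 9 libraries, Cav1 and Tek were the most alike of the member pairs (Pearson's r = 0.92, Spearman rho = 0.95, and r = 0.89 without C1 and L3). Icam2 and Bcam had r = 0.80, rho = 0.78. Myh11 went with Bcam (r = 0.78, rho = 0.83) and Pecam1 (r = 0.76, rho = 0.90). Pecam1 and Cav1 had r = 0.72, rho = 0.37, and r = 0.03 without C1 and L3. Cav2 had r of -0.28 to 0.02 with the other 6. These values describe 9 libraries that share tissue and normalization, and they carry no test.

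The tested genes most like each member by r differed between members. For Myh11 they were Cp, the copper oxidase ceruloplasmin (r = 0.90, rho = 0.93), and Fbln1, a matrix glycoprotein also on the list of meningeal and fibroblast genes (r = 0.87, rho = 0.87). Bcam was nearest to Phf23 (r = 0.93, rho = 0.88) and the elastic fibre gene Fbln5 (r = 0.92, rho = 0.92). Pecam1 was nearest to Erlec1 (r = 0.96, rho = 0.87) and the calpain subunit gene Capns1 (r = 0.96, rho = 0.90). Cav1 was nearest to the haem oxygenase gene Hmox1 (r = 0.94, rho = 0.82) and to Tek, and Tek to Cav1 and Irag1 (r = 0.87, rho = 0.68). Cav2 was nearest to the protein repair gene Pcmt1 (r = 0.96, rho = 0.90) and the phospholipase gene Plcd1 (r = 0.95, rho = 0.92). Icam2, at low counts, was nearest to Tcirg1 (r = 0.81, rho = 0.58) and Mrps25 (r = 0.81, rho = 0.82). Without C1 and L3 the r of these pairs was 0.78 to 0.95.

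Other genes came from 10 lists named for parts or functions of vessels, with 37 tested genes, 31 of them not members. Genes on these lists need not be confined to vessels, Itgb2 being an example, so their counts do not measure vessels alone. Of the 31, 24 were higher and 7 lower in L than in C, with a median of 0.20 against 0.03 over all tested genes, of which 56.3% were higher. Under quantile and median-of-ratios scaling 22 and 24 of the 31 were higher, where the share of all genes was 46.9% and 47.8%. Between H and L, 8 were higher and 23 lower in H, with a median of -0.21 against -0.03 over all tested genes, of which 44.9% were higher. Between H and C, 15 were higher and 16 lower in H, with a median of -0.01 against 0.02 over all tested genes, of which 52.7% were higher. None passed an adjusted p of 0.05 in limma in any of the 3 comparisons, and 3, 2 and 0 had an unadjusted p under 0.05 in L against C, H against L and H against C, against 3.91%, 1.35% and 3.19% of tested genes. Groups did not overlap for 5 of the 31, all higher, in L against C, for 3, all lower, in H against L and for 3, all higher, in H against C, against 4.99%, 6.74% and 5.35% of tested genes. Among those in L against C, Pgf, Dll1 and Notch4 were below 1 FPKM in all C libraries and passed the filter only with the L libraries. Pgf and Dll1 were also among those with an unadjusted p under 0.05 there (limma). In H against C, Lama5 and Notch4 passed the filter only with the H libraries. The filter favoured such genes, so their part in these counts is no separate support. With 1 library left out, a check chosen after seeing the data, 46 of the 56 differences given for single genes of these lists moved by over 1.5 times or turned, 13 of them turning, so they describe these libraries. Counts of a list below include the members it holds.

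**Figure D4:**
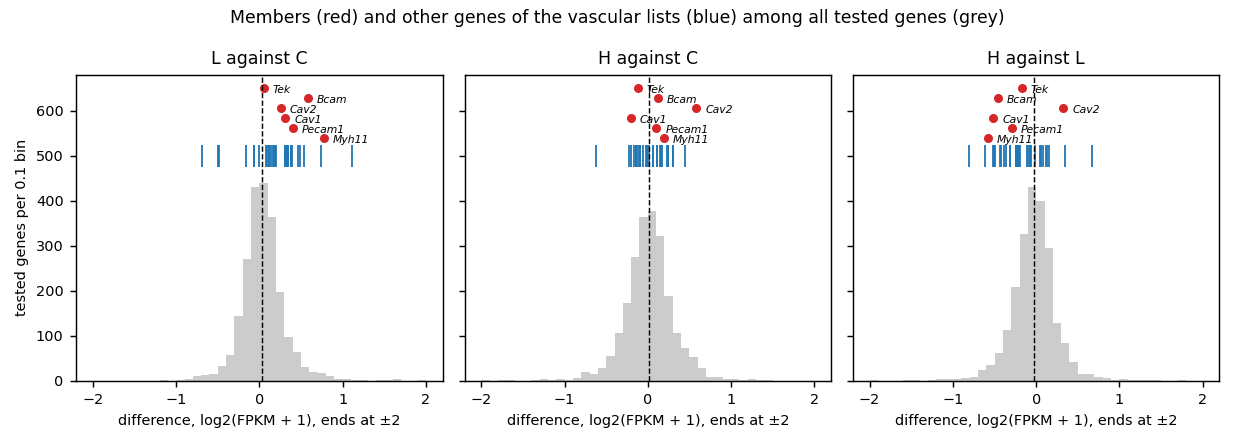
Number of tested genes (vertical axis) by difference in log2(FPKM + 1) (horizontal axis, in bins of 0.1, ending at 2 to either side), for each comparison. Red points are the 6 tested members and blue ticks the other 31 genes of the vascular lists, both at arbitrary height, and the dashed line is the median of all tested genes, which lies at 0.03 in L against C, where all 6 members lie to its right.

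Endothelial genes were higher in L than in C for 6 of 7 tested, with a median of 0.30, or 0.19 without L3. Vwf, the gene of a clotting factor stored in endothelium, had 3.21 ± 1.07 FPKM in L against 1.84 ± 0.0949 in C (SD), a difference of 0.54 without overlap. The ETS factor gene Fli1 differed by 0.33. Between H and L, 5 of 7 were lower in H, with a median of -0.24, or -0.12 without L3. Fli1 was at -0.42 and Vwf at -0.38, both without overlap but by narrow margins. Vwf had 2.556 FPKM in H1 and 2.565 in L3, and Fli1 had 1.99 in H2 and 2.04 in L2. Without L1 Vwf was at 0.34 in L against C and -0.18 in H against L. Between H and C, 5 of 7 were higher in H, with Esam, a junction molecule, at 0.24, or 0.09 without C3, and Vwf at 0.16. Cd34, a surface protein of endothelium and stem cells, was the 1 tested gene of the list that was lower in L than in C. In replicate order, its C libraries had 2.73, 12.5 and 13.2 FPKM. The L libraries had 3.96, 8.24 and 4.52, and the H libraries 10.02, 5.48 and 13.4. The groups of Cd34 overlapped, and with Esam it was higher in H than in L.

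Genes of adhesion and leukocyte passage were higher in L than in C for 3 of 3 tested, with a median of 0.38, or 0.17 without L3. Itgb2, an integrin gene of microglia and leukocytes, differed by 0.38 and Esam by 0.11. In H they were lower than in L for 2 of 3 (Itgb2, -0.32, with Esam at 0.12) and higher than in C for 3 of 3 (Itgb2, 0.06). Without L3 Itgb2 was at 0.17 for L against C and -0.11 for H against L, and the median of H against L moved from -0.30 to -0.09.

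Of the 19 genes of the smooth muscle list, 6 were among those analysed here, and 2 could be tested, Myh11 and the smoothelin gene Smtn. For Smtn, the C libraries had 1.32, 1.16 and 1.62 FPKM, the L libraries 2.09, 1.67 and 1.34, and the H libraries 1.37, 1.68 and 1.59. Its groups overlapped in each comparison, with differences of 0.19 for L against C, 0.11 for H against C and -0.07 for H against L, or 0.08 and 0.03 for the comparisons with L without L1. Below the filter, the calponin gene Cnn1 was at 0.914, 1.41 and 0.398 FPKM in the L libraries and 0.234 to 0.476 in C and H. Aoc3, an amine oxidase of smooth muscle and fat, was at 0.620 to 0.866 FPKM in L, 0.359 to 0.630 in C and 0.194 to 0.392 in H. Kcnmb1 was at 0.286 to 0.702 FPKM in L, 0.195 to 0.528 in C and 0.152 to 0.257 in H. Myocd was at 0.0848 to 0.179 FPKM in L, 0.0404 to 0.162 in C and 0.0914 to 0.0987 in H. L overlapped C for Aoc3, Kcnmb1 and Myocd. Among pericyte genes, Vtn differed by 0.49 for L against C, without overlap (0.31 without C3), -0.50 for H against L and -0.01 for H against C. Higd1b differed by -0.07, -0.02 and -0.09 in the same order.

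Caveolae genes were higher in L than in C for 4 of 4 tested (median 0.33, or 0.24 without L3). Cavin1, whose product coats caveolae, differed by 0.35 and the membrane-bending gene Pacsin2 by 0.34. They were lower in H than in L for 3 of 4, with Cavin1 at -0.36 and Pacsin2 at -0.19. Cavin1 did not overlap there, by a narrow margin, with H1 at 8.937 and L1 at 8.942 FPKM. H against C gave -0.01 for Cavin1 and 0.15 for Pacsin2. Without L3 Pacsin2 was at 0.18 in L against C and -0.03 in H against L, and without C3 Cavin1 was at 0.16 in L against C. For Cavin1, the C libraries had 7.65, 9.45 and 5.44 FPKM, the L libraries 8.94, 10.1 and 9.83, and the H libraries 8.94, 6.95 and 6.16, so that C2 lay inside the L range.

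Angiopoietin, Tie and VEGF genes were higher in L than in C for 4 of 4 tested. Pgf, the placental growth factor gene, had 1.78 ± 0.760 FPKM in L against 0.642 ± 0.195 in C (SD), a difference of 0.73 without overlap. Ptprb, a phosphatase gene whose product acts on Tie2, differed by 0.30. H against L was lower for 4 of 4 (Pgf, -0.43, and Ptprb, -0.24), and H against C higher for 3 of 4 (Pgf, 0.30, and Ptprb, 0.06). Pgf in H against L was at -0.22 without L3. Vascular Notch genes were higher in L than in C for 4 of 4, with the ligand genes Dll1 at 0.47, without overlap, and Jag2 at 0.32. H against L was lower for 3 of 4 (Dll1, -0.23, and the target gene Hey2, -0.22), and H against C higher for 3 of 4 (Jag2, 0.45, without overlap, and Dll1, 0.24). Without C1 Jag2 was at 0.14 in L against C and 0.27 in H against C.

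Basement membrane genes, a list that holds Bcam, were higher in L than in C for 6 of 8 tested (median 0.23), with Nid1 at 0.31 and Sparc at 1.11. Sparc was at 52.5 to 204.6 FPKM in C and 68.9 to 349.1 in L, so its groups overlapped, and the difference was 0.64 without L3, 1.80 without L2 and 1.75 without C1. For Lama5, whose laminin chain is the partner of the Bcam product, the C libraries had 0.762, 0.675 and 0.954 FPKM, the L libraries 1.15, 0.922 and 0.952, and the H libraries 1.01, 1.03 and 1.31. It differed by 0.24 ± 0.14 (SE) for H against C, without overlap. H was lower than L for 7 of 8 of the list (Nid1, -0.32, and Itga3, -0.52) and lower than C for 5 of 8 (Lamb1, -0.17). Without L3 Nid1 was at 0.16 in L against C and -0.17 in H against L, and Itga3 at -0.26 in H against L. Lamb1 was at 0.0031 in H against C without C1. Centred on each gene, the mean log2 level of the 8 was 0.47 in L3 and 0.35 in C1. It was 0.25 in L1, 0.16 in H1 and -0.41 to -0.04 elsewhere. L3, C1, L1 and H1 also had the highest cerebellar sums. The part of brain region in the levels of this list was not tested.

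Vascular tone genes were higher in L than in C for 3 of 5 tested (Ace, 0.39, with the kinase gene Rock2 at -0.48), higher in H than in L for 3 of 5 (Rock2, 0.35, with Ace at -0.62) and lower in H than in C for 4 of 5 (Ace, -0.22, and Rock2, -0.14). Without L3 the list's median moved from 0.10 to 0.02 in L against C and turned from 0.05 to -0.08 in H against L. Ace was then at 0.19 in L against C and -0.41 in H against L, and Rock2 at -0.30 and 0.17. Ace, whose product makes angiotensin II, had 9.05 FPKM in L3 and 3.36 to 6.29 elsewhere. Of the 23 genes of the blood-brain barrier list, only Lsr and Car4 were among those analysed here. Lsr differed by 0.31 for L against C, -0.51 for H against L and -0.20 for H against C, and Car4 by -0.69, 0.06 and -0.63. Without C1 Car4 was at -0.03 for L against C and 0.03 for H against C, and without L1 Lsr was at 0.12 for L against C and -0.31 for H against L. Car4 was at 51.5 FPKM in C1 and 8.41 to 17.9 elsewhere.

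**Figure D5:**
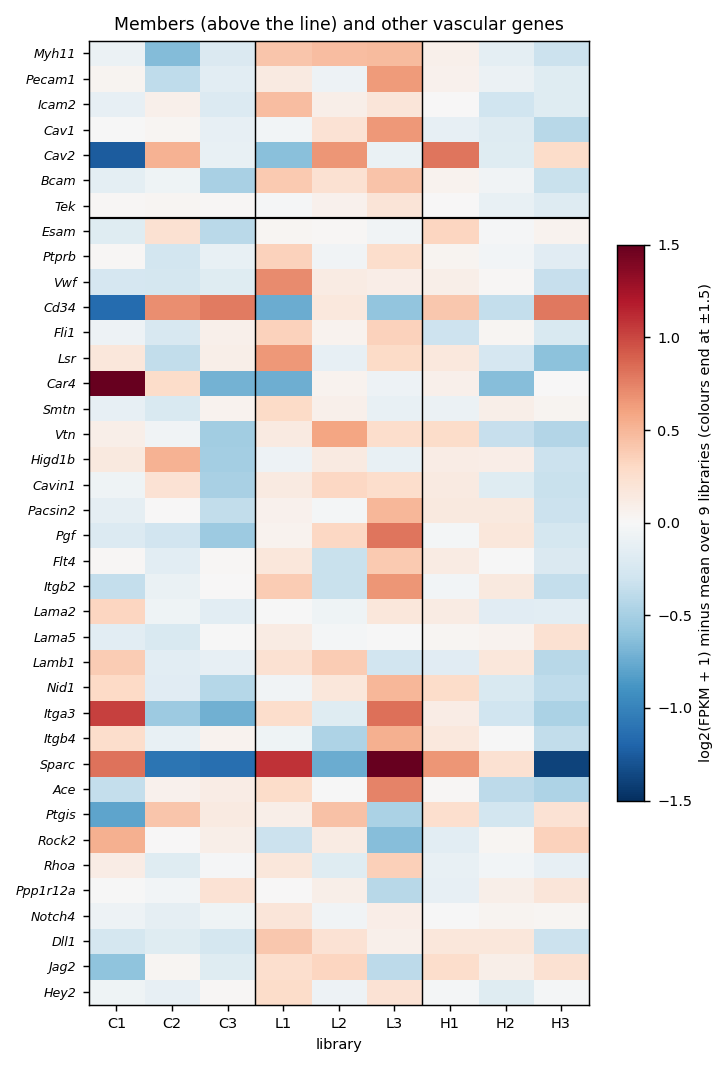
Level of the 7 members (above the line) and of 31 other tested genes of the vascular lists (rows) in each library (columns). Values are log2(FPKM + 1) minus the gene's mean over the 9 libraries, with colours ending at 1.5 to either side. Myh11 and Bcam are above their means in all 3 L libraries, and Cav2 and Cd34 are lowest in C1.

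Markers of other tissue and of blood were set beside these differences. All 5 tested genes of meninges and fibroblasts were higher in L than in C (median 0.71), and all 5 were lower in H than in L (median -0.67). Their levels summed to 5.34 to 14.04 FPKM in C, 14.98 to 35.01 in L and 5.47 to 19.9 in H, with L2 highest. Of them, Col1a1 passed the filter only with the L libraries. With the mean log2 level of these genes as a covariate, L against C was 0.65 for Myh11 and 0.48 for Bcam. H against L was then -0.47 ± 0.21 (SE) for Myh11, -0.36 ± 0.20 for Bcam and -0.46 ± 0.24 for Cav1. The unadjusted p of H against L was 0.064, 0.107 and 0.091, against 0.0087, 0.018 and 0.021 without the covariate (limma). All L sums lay above all C sums, so in L against C this covariate cannot be cleanly separated from group. With the cerebellar minus pallial marker level as a covariate, L against C was 0.76 for Myh11 and 0.57 for Bcam, and without C1 and L3 it was 0.87 and 0.58. Without L1 it was 0.79 and 0.56. Slc4a1, the red cell gene analysed here, was at 0.0307 to 0.417 FPKM, and 3 leukocyte genes summed to 0.0363 to 0.671 FPKM, with Cd3g at 0 in 6 of 9 libraries. The choroid plexus genes Folr1, Aqp1 and Prlr summed to 5.24 FPKM in C2, 2.87 in C3 and 0.188 to 1.996 elsewhere. The part of blood, choroid plexus, striatum and hypothalamus in the members' levels was not tested.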

How the data were processed

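Brain RNA of groups C, L and H, 3 libraries a group, was sequenced as mRNA, per the labels. The authors deposited FPKM values per gene and library, with gene lengths, per the file headers. Their processing notes, as given by the submitters, name GRCm38. Aligner, counting program and strand setting: not given in the sources used here. Analysed were 2996 genes with Ensembl numbers from 1 to 21270, and other genes were not analysed here. Coordinates were looked up by Ensembl identifier in GENCODE M21 on GRCm38, since only 20 genes had identical coordinates there, although 2950 had the same span, so the build of the table's own coordinates is uncertain and none are printed.

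FPKM times length gave whole multiples of 1 read for 100% of values (tolerance 0.01 reads), from which reads and depth were recovered. After log2(FPKM + 1), every gene above 1 FPKM in 3 or more libraries entered 1 limma 3.58.1 fit (R 4.3.3) with a term for group, a mean-variance trend and robust moderation. P-values are two-sided. They were adjusted by the Benjamini and Hochberg method across the 2226 genes in the fit, and 0.05 was the threshold. The fit was tested on simulated data first. Members, gene lists (22, of which 10 vascular) and tests were chosen with earlier results of these data known. Named were all members, the 2 tested genes most like each by Pearson's r, and per vascular list the 2 other genes with the smallest p in each comparison. Cd34, Cnn1, Aoc3, Kcnmb1, Myocd and the marker genes were added after their values were seen. Alternatives covered pseudocount, filter, scaling, limma-voom, covariates, the replicate number as a block, and libraries left out. Python 3.11.15 with pandas 2.3.3, numpy 2.4.6 and matplotlib 3.10.9 made tables and plots.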

Additional observations from a re-analysis of the deposited data

How the results depend on the processing

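Under 22 alternatives, 0 genes passed an adjusted p of 0.05 in any comparison in limma or limma-voom, so no member gained a call. In L against C, Myh11 ranged from 0.61 to 0.96 and Bcam from 0.46 to 0.67 over them. The median over the 7 members in L against C was 0.45 with a pseudocount of 0.1 FPKM, 0.43 with 0.5 FPKM and 0.46 with limma-voom, and 0.29 to 0.47 with 1 library left out. In H against L it was -0.52 and -0.53 with 0.1 FPKM and limma-voom, and -0.49 to -0.33 with 1 library left out. Icam2 was at 0.61 and 0.67 in L against C under these settings and at -0.77 and -0.85 in H against L. A smaller pseudocount enlarges differences of low genes by its construction. In H against C, leaving out 1 library gave -0.0034 to 0.16 for the median, -0.0049 to 0.21 for Pecam1, -0.16 to 0.0070 for Icam2 and -0.0034 to 0.23 for Bcam. In L against C it gave -0.23 to 0.66 for Cav2 and -0.0022 to 0.10 for Tek, and without both C1 and L3 they were -0.19 and -0.0029. Cav2 was also at -0.13 in L against C with the meningeal covariate and at -0.065 in H against L with the regional one. The cause was not tested. Deviations of same-numbered libraries correlated at -0.51 to 0.68 and those of other pairs at -0.62 to 0.66. These ranges were alike and gave no clear sign of pairing by replicate number, though the highest value was that of C2 with L2. With the number as a block Myh11 in L against C was 0.77, Bcam 0.58, and 0 genes were called. Scaling by median of ratios or quantiles gave 47.8% and 46.9% of genes higher in L than in C. Icam2, at 18 to 49 reads, is limited by depth.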
